A study of Mus musculus with 6 samples.

Results

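Solute carriers expressed in sorted mouse bone marrow basophil lineage cells are described here through 119 genes. A gene was taken when the symbol of its Entrez gene ID had the form of a solute carrier symbol, such as Slc6a9, and when its mean TPM (transcripts scaled so that each library has the same total) was 5 or more in at least 1 of 3 sorted populations. Of the 24532 gene IDs in the tables, 352 had such a symbol, 229 of these stayed below 5 TPM in every population, and 4 (Slc6a4, Slc18a2, Slc2a1 and Slc2a3) were left out by the rule. Members were thus chosen by their group means in these same libraries, and their presence above 5 TPM is a description and not a result. Just inside the limit, by their highest group mean, were Slc25a26 at 5.06, Slc15a2 at 5.10, Slc25a32 at 5.16 and Slc43a1 at 5.44 TPM, and just outside it were Slc31a1 at 4.83, Slc6a13 at 4.79, Slc15a3 at 4.70 and Slc39a10 at 4.55 TPM.

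The 3 populations came from bone marrow of C57BL/6J mice, with 2 libraries of total RNA each. MAR1INT and MAR1HI cells were both sorted as negative for lineage markers, CD34 and ckit and positive for CD200R3. They were parted by intermediate or high staining with MAR1, an antibody to the alpha chain of the IgE receptor. BaP cells, labelled as a basophil precursor, were sorted as lineage-negative, CD34-positive, ckit-negative and MAR1-positive. Per the labels the libraries are biological duplicates, with no animal, pool or day named. The p-values therefore measure the spread between these libraries, which may be in part technical.

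Solute carriers are membrane proteins that move ions, sugars, amino acids, nucleosides, lipids and metals across the cell surface and across the membranes of organelles. They work by facilitated diffusion, or by coupling one solute to the gradient of another, and they do not hydrolyse ATP. The number after Slc names a family of related sequence, and members of 1 family often share a kind of substrate. Basophils store histamine in granules, and the organic cation transporter Slc22a3 is known to carry histamine in mouse basophils.

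Transcripts of the proteins used for sorting were checked first. Fcer1a, for the chain that MAR1 binds, had 534 and 422 TPM in MAR1INT, 1211 and 1446 in MAR1HI and 776 and 892 in BaP. Cd200r3 had 2696 and 2342 TPM in MAR1INT, 1602 and 1576 in MAR1HI and 821 and 845 in BaP. Cd34 stood at 0.134 TPM in MAR1INT replicate 1 and was listed at 0 in replicate 2, was 4.67 and 7.63 TPM in MAR1HI and 52.6 and 44.1 TPM in BaP. Kit was at 0.0446 and 0.449 TPM in MAR1INT, 2.94 and 4.36 in MAR1HI and 44.9 and 38.6 in BaP, so the BaP libraries held Kit transcript although their cells were sorted as ckit-negative. The 10 basophil markers examined (among them Mcpt8, Prss34, Cpa3 and Ms4a2) were all in the tables. They summed to 14554 and 11838 TPM in MAR1INT, 22055 and 18426 in MAR1HI and 17210 and 22074 in BaP. The list holds Fcer1a and Cd200r3, whose proteins were used in the sort, and 4 markers were higher and 4 lower in MAR1INT than in BaP. Of 7 mast cell markers, the protease Mcpt1 and the receptor Mrgprb1 were listed at 0 in all 6 libraries. Those 7 summed to 0.0446 and 0.449 TPM in MAR1INT, 4.08 and 4.89 in MAR1HI and 45.1 and 42.1 in BaP, with Kit the largest part.

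Depth was close to even, with 4.75 to 5.28 gigabases of aligned sequence implied per library. The number of genes at 1 TPM or more was 9604 and 9705 in MAR1INT and 10710 to 11544 in the other 4 libraries. The MAR1INT tables listed 1202 and 972 of the 11337 tested genes at exactly 0, against 46 to 163 in the other libraries, and 5 and 3 of these genes had 20 TPM or more in each of the other 5 libraries. A 0 is therefore given below as listed and not as an absence. Replicate 2 of MAR1HI stood apart from replicate 1. In it, 109 of the 119 members were higher than in replicate 1 (85.9% of all tested genes were), with a median log2 difference of 0.44 over the members and 0.41 over all tested genes.

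Together the 119 members held 0.351 to 0.371% of all TPM in MAR1INT, 0.338 and 0.448% in MAR1HI and 0.325 and 0.342% in BaP. The ADP/ATP carrier Slc25a5 was the most abundant member over the 6 libraries, with a mean of 464 TPM. It was followed by the endosomal sodium/proton exchanger Slc9a9 at 202 TPM, the choline transporter-like protein Slc44a2 at 193 and the mitochondrial phosphate carrier Slc25a3 at 179 TPM. In 82 members the mean was 5 TPM or more in all 3 populations. The other 37 were below 5 TPM in some population: 10 passed only in BaP, 6 only in MAR1HI, 6 only in MAR1INT, 12 in MAR1HI and BaP, 2 in MAR1INT and MAR1HI and 1 in MAR1INT and BaP. Because a member that passed through 1 or 2 populations was chosen for being high there, its values and log2 change are given below as a description and without a p-value.

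The symbols of 3 members name no transporter. They are Slc9a3r1 (a scaffold protein that binds ion exchangers), Slc4a1ap (an adaptor protein) and Slc7a6os (named for lying opposite Slc7a6). They were kept as members and counted apart from the transport classes.

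All 119 members passed the filter on low values (TPM 1 or above in 2 or more libraries) and so entered the test, limma on log2(TPM + 1) over all tested genes, in which a gene was called at a Benjamini-Hochberg adjusted p under 0.05. This scale understates the change of genes at low levels. The medians of all tested genes were not at 0 but at -0.16 for MAR1INT minus BaP, -0.36 for MAR1INT minus MAR1HI and 0.24 for MAR1HI minus BaP, and the members' medians were -0.08, -0.38 and 0.27. In bulk libraries, fewer cells of a type and less RNA per cell cannot be told apart.

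In MAR1INT against BaP, 18 members were higher and 19 lower, that is 31.1% of the members, where 31.5% of all tested genes were called (11.1% higher and 20.4% lower). The share of members called is near that of the background. Of the 82 members at 5 TPM or more in every population, 14 were higher and 5 lower. A member that falls below 5 TPM in MAR1INT is not among these 82, so the limit itself shapes this split. The share of all tested genes under the same limit was not taken. Of the other 37, 4 were higher and 14 lower, calls that the choice of these members favours, and the counts by class below include them as a description. In 42 members (35.3%) both MAR1INT libraries lay above both BaP libraries, as in 29.7% of all tested genes, and in 44 both lay below, as in 39.1% of all tested genes. An unadjusted p under 0.05 was found in 51 members (42.9%) and in 42.9% of all tested genes. Fewer members were called when either BaP library was left out. Among the members at 5 TPM or more in every population, Slc9a3r1, Slc16a3, Slc20a1, Slc25a28, Slc36a1, Slc36a4, Slc37a3, Slc43a2, Slc44a2 and Slc48a1 lost their call without either BaP library, and Slc4a7 lost its call without BaP replicate 2. Under FPKM the split was 18 higher and 29 lower, and with quantile normalization it was 29 higher and 14 lower.

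In MAR1INT against MAR1HI, 4 members were higher and 7 lower (9.24%), where 16.8% of all tested genes were called (2.29% higher and 14.5% lower). Of the 82 members at 5 TPM or more in every population, 2 were higher and 3 lower. An unadjusted p under 0.05 was found in 39 members (32.8%) and in 30.8% of all tested genes. Without MAR1HI replicate 1 there were 2 calls and without replicate 2 there were 0. There were 6 and 7 calls without BaP replicates 1 and 2, and 20 and 22 without MAR1INT replicates 1 and 2. The calls of Slc4a7, Slc24a3 and Slc26a3 in this comparison were lost without either MAR1HI or either BaP library, and those of Slc24a3 and Slc26a3 also without MAR1INT replicate 1. The split was 13 higher and 3 lower with quantile normalization and 11 higher and 5 lower with median-of-ratios scaling.

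In MAR1HI against BaP, 5 members were higher and 1 lower (5.04%), where 2.49% of all tested genes were called (1.83% higher and 0.662% lower). Of the 82 members at 5 TPM or more in every population, 4 were higher and 0 lower. Here 28 members (23.5%) had an unadjusted p under 0.05, where 17.5% of all tested genes did. These calls rest on all 4 libraries compared: leaving out any 1 of the MAR1HI or BaP libraries left 0 members called by limma, and leaving out either MAR1INT library, which enters only through the estimate of the spread, gave 18. With FPKM or quantile normalization the split was 5 higher and 3 lower. The moderated F test over the 3 populations called 28 members (23.5%), where 26.6% of all tested genes were called. Over the 3 comparisons 38 members (31.9%) were called at least once, as were 33.9% of all tested genes, and 81 never.

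**Figure D1:**
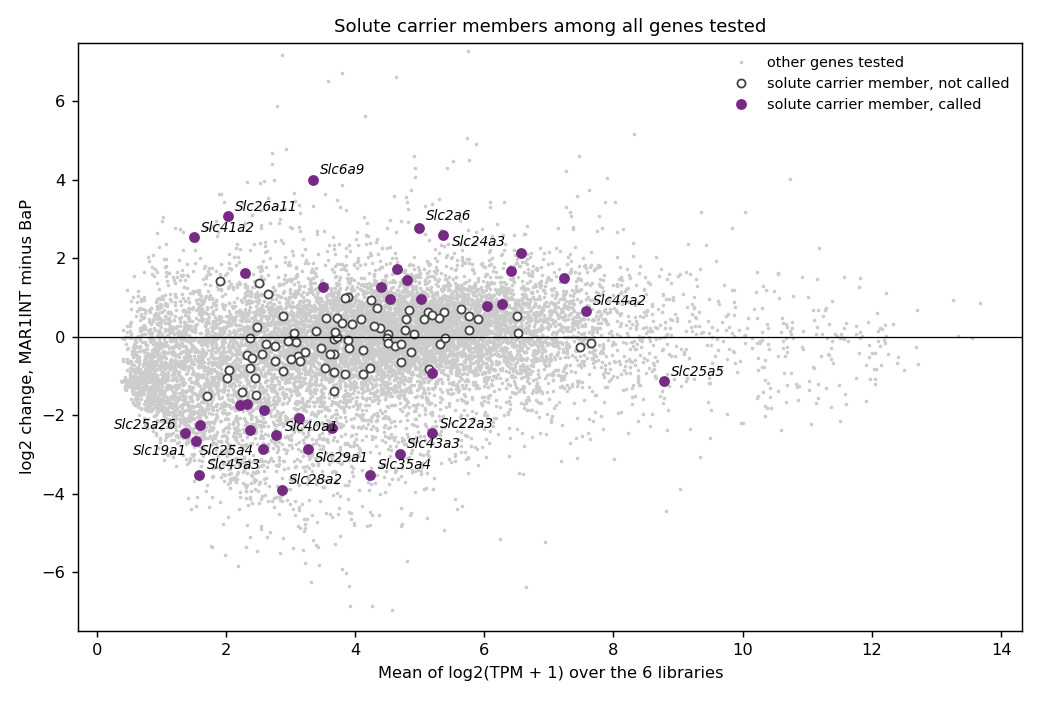
Log2 change of MAR1INT minus BaP against the mean of log2(TPM + 1) over the 6 libraries, for 11337 tested genes (grey points), the 119 solute carrier members (open circles, not called) and the members called by limma at an adjusted p under 0.05 (filled circles). The 18 members called higher include the abundant Slc44a2, and of the 19 called lower Slc25a5 lies farthest to the right.

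The order of the 3 populations was read from the calls of the 82 members at 5 TPM or more in every population, of which 20 were called at least once. Slc24a3 was called in all 3 comparisons, highest in MAR1INT and lowest in BaP. Slc2a6 and Slc41a3 were called higher than BaP in both CD34-negative populations. Slc4a7 was called higher, and Slc22a3 and Slc43a3 lower, in MAR1INT than in either other population. Slc26a3 was called highest in MAR1HI. The other 13, 10 higher and 3 lower, were called in MAR1INT against BaP alone, a split that the limit of 5 TPM in every population also shapes.

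**Figure D2:**
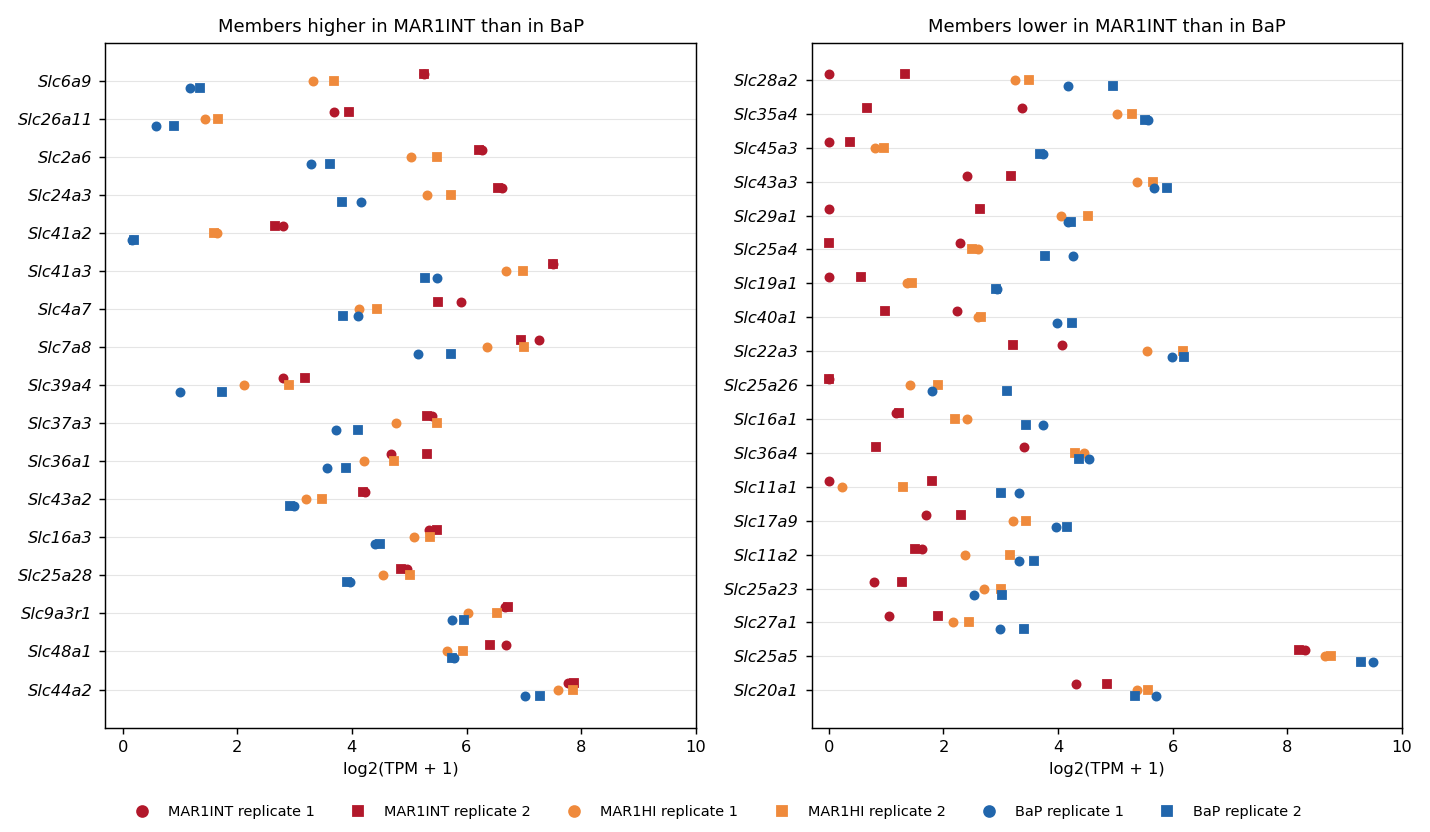
Log2(TPM + 1) of members called in MAR1INT minus BaP, in each library (MAR1INT red, MAR1HI orange, BaP blue, circles replicate 1, squares replicate 2). All of the 37 but 1 are drawn. The left panel holds members higher in MAR1INT and the right panel the 19 lower, each ordered by the size of the log2 change, with Slc6a9 and Slc28a2 at the top.

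For promoter sequence, RefSeq windows of 300 bases (250 before and 50 from a transcript start, GRCm38.p6) were matched by gene ID. Of the 119 members 89 had an entry, and in 81 the entry lay within 300 bases of the start in the tables. Of 6 short motifs searched on both strands, the E-box CACGTG was in 13 of the 81 member promoters (16.0%) and in 2349 of 32851 entries of the table (7.15%). These sets are unlike. Members are expressed genes with the nearest window taken for each, whereas the entries were limited neither by expression nor by distance. CACGTG reads the same on both strands, and its last bases TG also begin 3 of the other motifs, so matches can overlap there. The other motifs were AGATAA (4.94% of member promoters, 11.2% of all entries), TGATAA (7.41 and 9.05%), TGTGGT (11.1 and 16.8%), TTCNNNGAA (3.70 and 8.30%) and TGATGNAA (2.47 and 3.97%). These are matches of letters and not shown to be binding sites. Of the 13 members with an E-box, 4 were called in a comparison. Over all members 31.9% were called at least once, and over all tested genes 33.9%, so this share is near the background. The windows of all 4 are shown. Slc36a1 and Slc37a3, of lysosomes, were higher in MAR1INT than in BaP. Slc16a1 and Slc20a1, of the cell surface, were lower (Slc16a1 reached 5 TPM in BaP alone, so its direction is a description). Each window is written 5′ to 3′ on the gene's strand, with CACGTG in capitals: Slc36a1 at chr11:55204090-55204389 on the plus strand, Slc37a3 at chr6:39377658-39377957 on the minus strand, Slc16a1 at chr3:104638414-104638713 on the plus strand and Slc20a1 at chr2:129198523-129198822 on the plus strand.
Slc36a1: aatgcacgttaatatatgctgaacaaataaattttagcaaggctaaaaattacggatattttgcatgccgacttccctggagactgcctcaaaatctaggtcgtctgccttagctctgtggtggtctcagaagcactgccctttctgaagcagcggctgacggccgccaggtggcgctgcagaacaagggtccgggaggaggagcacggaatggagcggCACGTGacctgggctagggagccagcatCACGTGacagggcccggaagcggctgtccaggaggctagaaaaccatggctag
Slc37a3: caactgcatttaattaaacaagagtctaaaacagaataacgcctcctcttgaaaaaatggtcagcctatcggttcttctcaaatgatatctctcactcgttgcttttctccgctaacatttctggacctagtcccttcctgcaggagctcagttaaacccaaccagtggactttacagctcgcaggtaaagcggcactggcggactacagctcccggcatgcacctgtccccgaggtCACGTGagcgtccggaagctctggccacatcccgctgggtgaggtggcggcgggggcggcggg
Slc16a1: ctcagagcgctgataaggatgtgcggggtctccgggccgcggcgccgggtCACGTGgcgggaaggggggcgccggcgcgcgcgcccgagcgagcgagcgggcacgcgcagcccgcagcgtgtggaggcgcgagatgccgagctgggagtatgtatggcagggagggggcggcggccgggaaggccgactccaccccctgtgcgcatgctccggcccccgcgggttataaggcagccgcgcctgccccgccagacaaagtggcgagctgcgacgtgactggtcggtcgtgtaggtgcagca
Slc20a1: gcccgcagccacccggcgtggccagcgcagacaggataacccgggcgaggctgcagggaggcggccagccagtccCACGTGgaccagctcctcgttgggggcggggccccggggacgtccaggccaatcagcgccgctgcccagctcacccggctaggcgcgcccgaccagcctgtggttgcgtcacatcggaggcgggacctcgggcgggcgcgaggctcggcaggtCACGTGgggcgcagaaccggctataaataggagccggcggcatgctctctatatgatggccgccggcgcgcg
The first base of the match lay 31 and 3 bases before the transcript start in Slc36a1, 13 in Slc37a3, 200 in Slc16a1 and 175 and 22 in Slc20a1.

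Each count for a class or list below is a description, to be read beside the shares over all tested genes. In MAR1INT against BaP these were 11.1% higher and 20.4% lower, and in MAR1INT against MAR1HI 2.29% higher and 14.5% lower. Carriers of protons, sodium, potassium, chloride, bicarbonate and calcium were 16 members, of which 4 were higher and 0 lower in MAR1INT than in BaP (5 and 1 under FPKM, 7 and 1 with median-of-ratios scaling). Their summed level was 804 and 760 TPM in MAR1INT, 638 and 795 in MAR1HI and 456 and 492 in BaP, so both CD34-negative populations lay above BaP.

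Slc24a3 (chr2:145242611-145641939, mm10), a potassium-dependent sodium/calcium exchanger, had 97.0 and 92.7 TPM in MAR1INT, 38.5 and 51.9 in MAR1HI and 16.8 and 13.2 in BaP. Its libraries formed 3 separate steps. By limma it was 2.59 ± 0.29 higher in MAR1INT than in BaP on the log2 scale (SE, adjusted p = 0.000298), 1.07 ± 0.29 higher than in MAR1HI (adjusted p = 0.0334), and MAR1HI was 1.52 ± 0.29 above BaP (adjusted p = 0.0306). Slc4a7, a sodium/bicarbonate cotransporter, stood at 58.6 and 44.3 TPM in MAR1INT, 16.5 and 20.8 in MAR1HI and 16.3 and 13.3 in BaP. MAR1INT was the high population here, and MAR1HI and BaP lay next to each other. The log2 change was 1.73 ± 0.32 against BaP (limma adjusted p = 0.00395) and 1.41 ± 0.32 against MAR1HI (adjusted p = 0.0183).

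Slc26a3 (chr12:31438219-31473919), a chloride/bicarbonate exchanger best known from gut epithelium, had 34.7 and 37.8 TPM in MAR1INT, 67.2 and 92.1 in MAR1HI and 23.4 and 22.3 in BaP. Both MAR1HI libraries lay above all others. MAR1HI was 1.74 ± 0.28 above BaP on the log2 scale (limma adjusted p = 0.0155), and MAR1INT was 1.10 ± 0.28 below MAR1HI (log2 change -1.10, adjusted p = 0.0272). No other member was called this way, and none was called lowest in MAR1HI. Slc26a11, a sulfate and chloride carrier of the same family, had 11.9 and 14.4 TPM in MAR1INT, 1.70 and 2.16 in MAR1HI and 0.504 and 0.851 in BaP, a log2 change of 3.08 against BaP. The potassium-chloride cotransporter Slc12a5 had 5.68 and 5.80 TPM in MAR1INT, 1.10 and 3.73 in MAR1HI and 1.62 and 1.43 in BaP, and was not called.

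Other abundant exchangers of this class were not called. Slc9a9 had 180.4 and 172 TPM in MAR1INT, 223 and 249 in MAR1HI and 188 and 202 in BaP. Slc4a2, an anion exchanger, had 45.3 and 42.7 TPM in MAR1INT, 38.9 and 44.2 in MAR1HI and 29.8 and 33.2 in BaP, with a log2 change of 0.47 ± 0.27 (MAR1INT minus BaP, limma adjusted p = 0.21). The red cell anion exchanger Slc4a1 had 10.9 and 3.66 TPM in MAR1INT, 5.82 and 4.71 in MAR1HI and 7.02 and 14.4 in BaP, and was not called in any comparison. The 12 erythroid markers in the tables, haemoglobin genes included, summed to 2792 and 1277 TPM in MAR1INT, 1225 and 634 in MAR1HI and 1601 and 2366 in BaP, and their part in the Slc4a1 values was not tested.

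Amino acid and peptide carriers were 20 members, with 4 higher and 2 lower in MAR1INT than in BaP (5 and 1 under both median-of-ratios scaling and quantile normalization). The glycine transporter Slc6a9 (chr4:117835258-117869305) had the largest log2 change of MAR1INT minus BaP among the members. It had 37.3 and 37.4 TPM in MAR1INT, 8.99 and 11.9 in MAR1HI and 1.26 and 1.54 in BaP. The populations did not overlap, and the log2 changes were 4.001 for MAR1INT minus BaP, 1.75 for MAR1INT minus MAR1HI and 2.25 for MAR1HI minus BaP. BaP was below 5 TPM in it, so these are given as description.

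The large neutral amino acid exchangers Slc7a5 and Slc7a8 each pair with the heavy chain Slc3a2. Slc7a8 had 152 and 123 TPM in MAR1INT, 80.7 and 127 in MAR1HI and 34.7 and 51.9 in BaP. BaP lay below the other populations, which overlapped. The log2 change of MAR1INT minus BaP was 1.67 ± 0.30 (SE, limma, adjusted p = 0.00332), and that of MAR1HI minus BaP, 1.23 ± 0.30, did not pass (adjusted p = 0.0718). Slc7a5 had 18.4 and 20.5 TPM in MAR1INT, 21.5 and 30.4 in MAR1HI and 18.2 and 21.7 in BaP, with a log2 change of -0.03 ± 0.33 (adjusted p = 0.958). Slc7a8 thus made up 89.2 and 85.7% of the summed TPM of the pair in MAR1INT, 78.9 and 80.6% in MAR1HI and 65.6 and 70.5% in BaP. Slc3a2 had 86.5 and 99.1 TPM in MAR1INT, 102 and 146 in MAR1HI and 52.0 and 79.5 in BaP, and its change between MAR1INT and BaP, 0.52 ± 0.29 on the log2 scale, did not pass (adjusted p = 0.198).

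Slc36a1, a proton-coupled exporter of small amino acids from lysosomes, had 24.7 and 38.8 TPM in MAR1INT, 17.5 and 25.7 in MAR1HI and 10.8 and 13.9 in BaP. MAR1INT and MAR1HI overlapped and both lay above BaP. Its log2 change of MAR1INT minus BaP was 1.27 ± 0.37 (limma adjusted p = 0.0289). The related Slc36a4 went the other way, with 9.64 and 0.768 TPM in MAR1INT, 20.7 and 18.6 in MAR1HI and 22.3 and 19.6 in BaP. Its MAR1INT libraries lay far apart, and the call (log2 change -2.34 ± 0.70, adjusted p = 0.031) was lost under 10 of 14 alternatives. Slc43a2, a facilitator of large neutral amino acids, had 17.8 and 17.3 TPM in MAR1INT, 8.24 and 10.1 in MAR1HI and 6.93 and 6.54 in BaP, with a log2 change of 1.26 ± 0.37 against BaP (adjusted p = 0.0298). The glutamine carriers Slc38a2 and Slc1a5 were abundant and not called. Slc38a2 had 83.8 and 83.5 TPM in MAR1INT, 82.9 and 155 in MAR1HI and 68.2 and 90.4 in BaP. Slc1a5 stood at 53.0 and 61.6 TPM in MAR1INT, 43.0 and 61.6 in MAR1HI and 50.2 and 51.8 in BaP.

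Slc43a3 (chr2:84936646-84958509) was counted in this class by its family number, but it is known as a facilitator of purine nucleobases. It had 4.29 and 8.09 TPM in MAR1INT, 40.6 and 49.2 in MAR1HI and 49.99 and 58.3 in BaP. MAR1INT stood apart, and MAR1HI lay just below BaP. By limma the log2 change was -2.99 ± 0.35 against BaP (adjusted p = 0.000405) and -2.72 ± 0.35 against MAR1HI (adjusted p = 0.00134). The call against MAR1HI was lost under 1 of 14 alternatives, the one without MAR1HI replicate 2 (adjusted p = 0.0592).

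Both nucleoside carriers were also low in MAR1INT. The concentrative carrier Slc28a2 was listed at 0 in MAR1INT replicate 1 and had 1.52 TPM in replicate 2, against 8.49 and 10.2 in MAR1HI and 17.1 and 30.0 in BaP. The equilibrative carrier Slc29a1 was listed at 0 in MAR1INT replicate 1 and had 5.25 TPM in replicate 2, against 15.5 and 21.9 in MAR1HI and 17.0 and 17.7 in BaP. In each of these genes, every MAR1INT library lay below every other library, with log2 changes of MAR1INT minus BaP of -3.90 for Slc28a2 and -2.88 for Slc29a1. Among 12 tested enzymes and binding proteins of nucleoside salvage, 2 were higher and 3 lower in MAR1INT than in BaP and 3 were lower than in MAR1HI. Thymidine kinase Tk1 had 2.23 and 1.66 TPM in MAR1INT, 19.0 and 20.1 in MAR1HI and 27.0 and 21.9 in BaP (log2 change against BaP -3.11 ± 0.38, limma adjusted p = 0.00046). The purine salvage enzymes Pnp and Hprt were also lower, with log2 changes of -1.66 ± 0.23 and -1.39 ± 0.24, and the mitochondrial kinase Tk2 was higher, at 1.25 ± 0.38 (adjusted p = 0.0324).

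Mitochondrial carriers were the largest class, with 28 members, of which 1 was higher and 4 lower in MAR1INT than in BaP. That split turned with scaling: it was 3 higher and 2 lower with quantile normalization, 1 and 8 under FPKM, and 3 and 5 when scaled by median of ratios. They summed to 882 and 771 TPM in MAR1INT, 942 and 1179 in MAR1HI and 1266 and 1193 in BaP. Most of the difference between the MAR1INT and BaP sums lay in Slc25a5 alone. Slc25a5 (chrX:36795597-36798808), which trades cytosolic ADP for mitochondrial ATP, had 316 and 293 TPM in MAR1INT, 401 and 431 in MAR1HI and 722 and 619 in BaP. The 3 populations did not overlap. The log2 change was -1.13 ± 0.19 for MAR1INT minus BaP (SE, limma, adjusted p = 0.00193), and -0.68 ± 0.19 for MAR1HI minus BaP, which did not pass (adjusted p = 0.0964). The mouse genome holds processed copies of this gene, and how shared reads were assigned is not given in the sources used here. The second ADP/ATP carrier, Slc25a4, had 3.86 TPM in MAR1INT replicate 1 and was listed at 0 in replicate 2, against 5.06 and 4.67 in MAR1HI and 18.2 and 12.6 in BaP. Slc25a5 made up 97.5% or more of the summed TPM of the pair in every library.

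Other abundant carriers of the class were not called. The phosphate carrier Slc25a3 had 182 and 138 TPM in MAR1INT, 157 and 221 in MAR1HI and 179 and 199.9 in BaP (log2 change of MAR1INT minus BaP -0.26 ± 0.24, limma adjusted p = 0.456). The oxoglutarate carrier Slc25a11 had 61.0 and 53.5 TPM in MAR1INT, 52.8 and 85.8 in MAR1HI and 37.1 and 42.3 in BaP. The carnitine/acylcarnitine carrier Slc25a20 had 39.0 and 45.4 TPM in MAR1INT, 36.9 and 38.1 in MAR1HI and 38.3 and 20.5 in BaP. In both genes the MAR1INT libraries lay above the BaP libraries, in Slc25a20 by a narrow margin. Of the mitochondrial iron importers, Slc25a28 had 30.1 and 27.9 TPM in MAR1INT, 22.2 and 31.2 in MAR1HI and 14.6 and 14.1 in BaP (log2 change against BaP 0.96 ± 0.32, adjusted p = 0.0475), a call lost under 6 of 14 alternatives. Its partner Slc25a37, the form of developing red cells, had 6.59 and 4.95 TPM in MAR1INT, 4.51 and 5.16 in MAR1HI and 6.91 and 7.02 in BaP and was not called. Slc25a26, which imports S-adenosylmethionine, was listed at 0 in both MAR1INT libraries and had 1.65 and 2.75 TPM in MAR1HI and 2.47 and 7.65 in BaP, so no fold is given. Slc25a23, a calcium-regulated ATP-Mg/phosphate carrier, had 0.729 and 1.42 TPM in MAR1INT, 5.54 and 7.02 in MAR1HI and 4.82 and 7.11 in BaP, below the other populations in both libraries.

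Metal and heme carriers were 18 members, with 4 higher and 3 lower in MAR1INT than in BaP (5 and 2 with quantile normalization). Slc41a3 (chr6:90604880-90646412), of a family of magnesium carriers, had 182 and 182 TPM in MAR1INT, 102 and 126 in MAR1HI and 43.5 and 37.9 in BaP, 3 steps that did not overlap. Its log2 change by limma was 2.14 ± 0.23 for MAR1INT minus BaP (adjusted p = 0.000275) and 1.46 ± 0.23 for MAR1HI minus BaP (adjusted p = 0.0144), and 0.68 ± 0.23 between MAR1INT and MAR1HI, which did not pass (adjusted p = 0.0748). Slc41a2 of the same family reached 5 TPM in MAR1INT alone, with 5.94 and 5.31 TPM in MAR1INT, 2.12 and 2.02 in MAR1HI and 0.122 and 0.150 in BaP. The heme transporter Slc48a1 had 102 and 84.0 TPM in MAR1INT, 49.3 and 60.3 in MAR1HI and 54.3 and 52.8 in BaP (log2 change against BaP 0.78 ± 0.25, adjusted p = 0.0399). That call was lost under 6 of 14 alternatives, and the gene overlaps Hdac7 on the other strand. Whether counting used strand is not given in the sources used here, so reads of such a pair may be mixed. The zinc importer Slc39a4 had 5.94 and 8.07 TPM in MAR1INT, 3.36 and 6.43 in MAR1HI and 1.01 and 2.34 in BaP. The zinc exporter Slc30a1 had 13.4 and 5.39 TPM in MAR1INT, 3.78 and 4.60 in MAR1HI and 2.69 and 2.76 in BaP. In both genes the MAR1INT libraries lay above the BaP libraries. Both reached 5 TPM in MAR1INT alone, so this is a description.

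Slc40a1, Slc11a2 and Slc11a1, which carry iron, were below 5 TPM in MAR1INT and are given as a description. The iron exporter Slc40a1 had 3.69 and 0.976 TPM in MAR1INT, 5.07 and 5.30 in MAR1HI and 14.9 and 17.8 in BaP. The proton-coupled iron importer Slc11a2 had 2.07 and 1.84 TPM in MAR1INT, 4.21 and 7.94 in MAR1HI and 8.93 and 10.9 in BaP. In both, BaP was highest and MAR1INT lowest with no overlap, and the log2 changes of MAR1INT minus BaP were -2.51 and -1.88. Slc11a1, best known from the phagosomes of macrophages, was listed at 0 in MAR1INT replicate 1 and had 2.47 TPM in replicate 2, against 0.167 and 1.44 in MAR1HI and 8.91 and 7.01 in BaP. Of the 12 tested monocyte and macrophage markers, 9 were also lower in MAR1INT than in BaP and 1 was higher. Their summed level was 668 and 643 TPM in MAR1INT, 284 and 329 in MAR1HI and 362 and 245 in BaP, of which Ccr2 alone made up 618 and 565 TPM in MAR1INT, 230.5 and 274 in MAR1HI and 85.2 and 56.2 in BaP. Csf1r, a defining marker, had 1.89 and 6.17 TPM in MAR1INT, 3.70 and 4.20 in MAR1HI and 39.4 and 29.6 in BaP. MHC class II and dendritic cell markers (0 higher and 6 lower of 7 tested) summed to 16.1 and 25.6 TPM in MAR1INT, 74.1 and 61.2 in MAR1HI and 990 and 358 in BaP. Neutrophil markers (0 higher and 6 lower of 12 tested) summed to 3950 and 3320 TPM in MAR1INT, 4918 and 3781 in MAR1HI and 6187 and 11202 in BaP. Eosinophil markers (2 higher and 5 lower of 8 tested) summed to 213 and 349 TPM in MAR1INT, 109 and 158 in MAR1HI, and at least 1152 in both BaP libraries. None of these 4 marker lists held a gene at 0 in all 6 libraries. The part of these cells in the Slc11a1 and Slc40a1 values was not tested.

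Beyond the carriers, 25 genes of iron, heme and copper handling were tested, and 0 were higher and 9 lower in MAR1INT than in BaP (4 were lower than in MAR1HI). The transferrin receptor Tfrc had 9.78 and 8.25 TPM in MAR1INT, 17.3 and 23.6 in MAR1HI and 50.5 and 45.8 in BaP (log2 change against BaP -2.30 ± 0.33, limma adjusted p = 0.00101). The metallothionein Mt1 was listed at 0 in both MAR1INT libraries and had 4.84 and 5.01 TPM in MAR1HI and 17.4 and 14.9 in BaP. Of the 12 tested erythroid markers, Tfrc among them, 0 were higher and 3 lower in MAR1INT than in BaP, and 1 was lower than in MAR1HI. Their summed level, given above and made up mostly of haemoglobin transcripts, did not follow the order of Tfrc. The part of erythroid cells in these values was not tested.

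Monocarboxylate carriers were 4 members. Slc16a3, the carrier typical of cells that release lactate, had 39.6 and 43.5 TPM in MAR1INT, 32.9 and 40.0 in MAR1HI and 20.05 and 21.6 in BaP. MAR1HI lay close to MAR1INT, and both lay above BaP. The log2 change of MAR1INT minus BaP was 0.96 ± 0.28 (limma adjusted p = 0.0292). Slc16a1, the widespread carrier of lactate, pyruvate and ketone bodies whose promoter window is shown above, had 1.26 and 1.34 TPM in MAR1INT, 4.34 and 3.62 in MAR1HI and 12.2 and 9.87 in BaP, a log2 change of -2.38. Slc16a3 therefore made up 96.9 and 97.0% of the pair in MAR1INT, 88.3 and 91.7% in MAR1HI and 62.1 and 68.6% in BaP. Of 11 tested partners of these carriers and genes of pyruvate entry, 3 were higher and 1 lower in MAR1INT than in BaP. The genes named next are among the higher ones. Embigin, Emb, an accessory chain of monocarboxylate carriers, had 557 and 563 TPM in MAR1INT, 256 and 284 in MAR1HI and 251 and 201 in BaP (log2 change 1.31 ± 0.20, adjusted p = 0.00126). The pyruvate carrier subunit Mpc2 had 534 and 560 TPM in MAR1INT, 395 and 377 in MAR1HI and 199 and 156 in BaP (log2 change 1.63 ± 0.20, adjusted p = 0.000456).

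**Figure D3:**
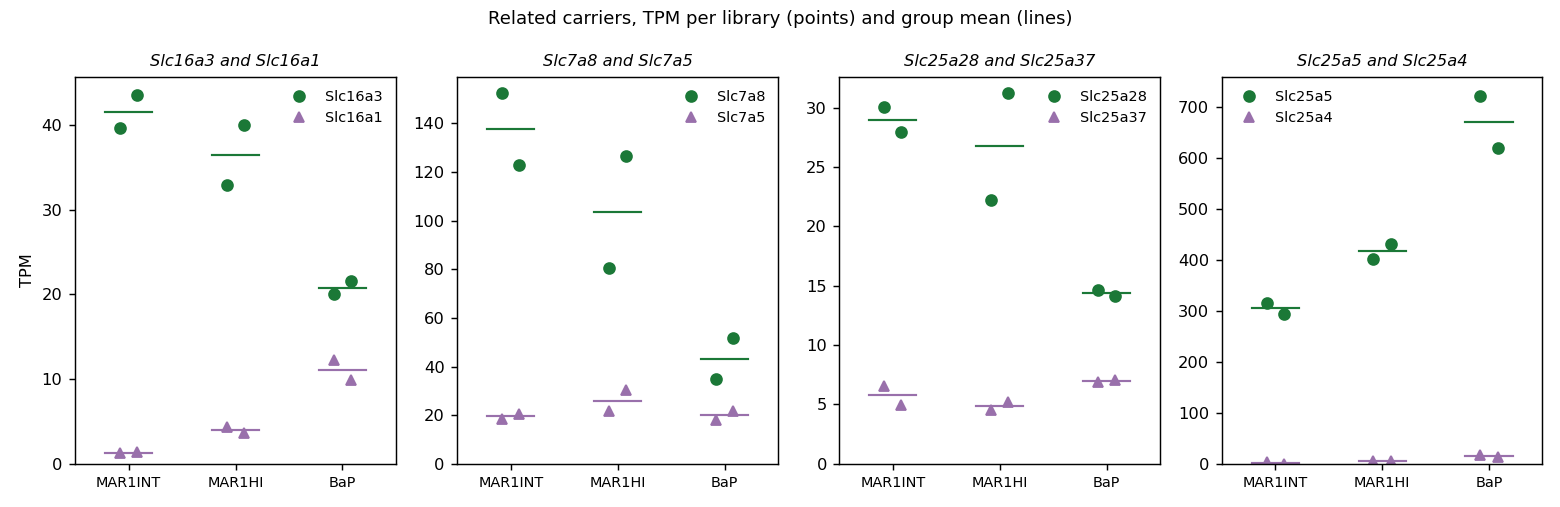
TPM per library (points, replicate 1 left) and group mean (lines) of 4 pairs of related carriers in MAR1INT, MAR1HI and BaP, with a separate vertical axis from 0 in each panel. Slc16a3 and Slc16a1 move apart (96.9 and 97.0% Slc16a3 in MAR1INT, 62.1 and 68.6% in BaP), Slc7a8 is lowest in BaP while Slc7a5 stays between 18.2 and 30.4 TPM, Slc25a28 is lowest in BaP over a Slc25a37 between 4.51 and 7.02 TPM, and both ADP/ATP carriers, Slc25a5 and Slc25a4, are highest in BaP.

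Carriers of sugars, inositol and sugar phosphates were 7 members, with 2 higher and 1 lower in MAR1INT than in BaP. Slc2a6 (chr2:27021365-27027998), a hexose transporter of lysosomal membranes, had 75.8 and 73.0 TPM in MAR1INT, 31.9 and 43.8 in MAR1HI and 8.75 and 11.3 in BaP. The populations did not overlap. By limma it was 2.78 ± 0.31 higher in MAR1INT than in BaP on the log2 scale (adjusted p = 0.000294) and 1.81 ± 0.31 higher in MAR1HI than in BaP (adjusted p = 0.0192). Slc37a3, a lysosomal carrier known to act with Atraid in the uptake of bisphosphonates, had 41.2 and 38.8 TPM in MAR1INT, 26.2 and 43.6 in MAR1HI and 12.2 and 16.3 in BaP. Its MAR1HI libraries lay on either side of MAR1INT, and the log2 change of MAR1INT minus BaP was 1.44 ± 0.34 (adjusted p = 0.0121). Slc45a3 (chr1:131962915-131982972), a prostate marker in human that belongs to a family of sugar carriers, was listed at 0 in MAR1INT replicate 1 and had 0.297 TPM in replicate 2, against 0.737 and 0.956 in MAR1HI and 12.3 and 11.9 in BaP. Its log2 change of MAR1HI minus BaP was -2.82, a description because it reached 5 TPM in BaP alone. Slc50a1 had 34.2 and 45.04 TPM in MAR1INT, 31.4 and 51.1 in MAR1HI and 24.1 and 26.3 in BaP and was not called.

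Carriers of vitamins, choline and organic ions were 7 members. Slc22a3 (chr17:12419974-12507704), the histamine carrier named above, had 15.7 and 8.22 TPM in MAR1INT, 45.8 and 71.7 in MAR1HI and 62.3 and 72.7 in BaP. MAR1INT lay below the other populations, which overlapped. By limma the log2 change was -2.46 ± 0.37 against BaP (adjusted p = 0.0012) and -2.23 ± 0.37 against MAR1HI (adjusted p = 0.00384). The call against BaP was kept under all 14 alternatives, and that against MAR1HI was lost under 2, one of them the fit without MAR1HI replicate 2 (adjusted p = 0.0927). Slc44a2 had 217 and 234 TPM in MAR1INT, 193 and 232 in MAR1HI and 129 and 155 in BaP (log2 change against BaP 0.67 ± 0.21, adjusted p = 0.0391, a call lost under 8 of 14 alternatives). The reduced folate carrier Slc19a1 was listed at 0 in MAR1INT replicate 1 and had 0.476 TPM in replicate 2, against 1.58 and 1.72 in MAR1HI and 6.64 and 6.59 in BaP. It was lowest in MAR1INT and highest in BaP, without overlap.

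Of 6 carriers of nucleotide sugars and other Golgi substrates, 0 were higher and 1 lower in MAR1INT than in BaP (1 and 1 after quantile normalization, 1 and 2 under median-of-ratios scaling). The lower one was Slc35a4, with 9.35 and 0.582 TPM in MAR1INT, 31.6 and 37.9 in MAR1HI and 46.2 and 44.8 in BaP. Slc35a4 overlaps Apbb3 on the other strand, and its MAR1INT libraries lay far apart. Of 4 carriers of phosphate, sulfate and dicarboxylates, 0 were higher and 2 lower. The phosphate importer Slc20a1, whose promoter window is shown above, had 18.8 and 28.1 TPM in MAR1INT, 40.3 and 46.3 in MAR1HI and 51.0 and 39.5 in BaP (log2 change against BaP -0.93 ± 0.31, limma adjusted p = 0.046, lost under 9 of 14 alternatives). The vesicular nucleotide carrier Slc17a9 had 2.22 and 3.91 TPM in MAR1INT, 8.24 and 9.87 in MAR1HI and 14.6 and 16.9 in BaP, 3 steps without overlap. Of 4 carriers of fatty acids, bile acids and lipids, 0 were higher and 1 lower, the fatty acid transport protein Slc27a1, with 1.06 and 2.74 TPM in MAR1INT, 3.50 and 4.43 in MAR1HI and 6.93 and 9.54 in BaP. Among the 3 symbols that name no transporter, Slc9a3r1 had 101 and 105 TPM in MAR1INT, 64.0 and 91.7 in MAR1HI and 52.9 and 61.0 in BaP (log2 change against BaP 0.84 ± 0.26, adjusted p = 0.033), and the others were not called.

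**Figure D4:**
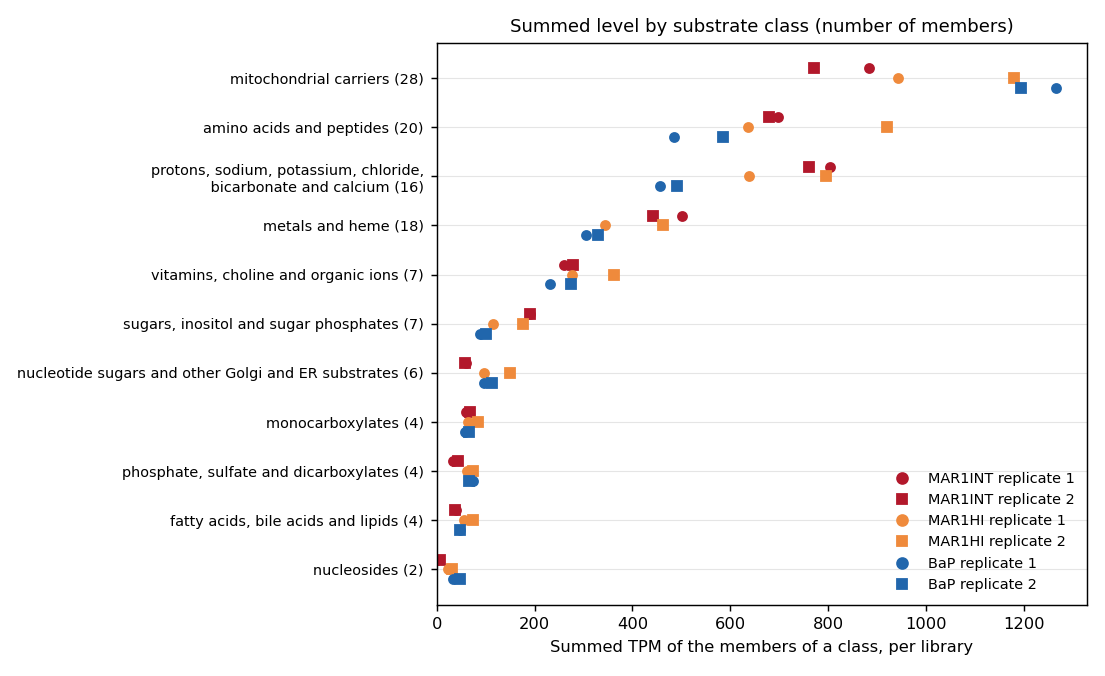
Summed TPM of the members of 11 substrate classes in each library (MAR1INT red, MAR1HI orange, BaP blue, circles replicate 1, squares replicate 2), with the number of members beside each class name. Mitochondrial carriers sum to 882 and 771 TPM in MAR1INT and to 1266 and 1193 in BaP. Most of that difference lies in Slc25a5 alone, with 316 and 293 TPM in MAR1INT and 722 and 619 in BaP. Carriers of protons and inorganic ions sum to 804 and 760 TPM in MAR1INT and to 456 and 492 in BaP.

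Lists of genes that work with amino acid carriers were set beside them. Of 17 tested genes of the amino acid response, 3 were higher and 8 lower in MAR1INT than in BaP, and 0 were higher and 6 lower than in MAR1HI. Among the higher ones, Ddit4 had 27.3 and 22.1 TPM in MAR1INT, 5.96 and 12.1 in MAR1HI and 2.15 and 1.61 in BaP. Its log2 change against BaP was 3.16 ± 0.45 (limma adjusted p = 0.000967). The other genes given from this list were among the lower ones. The serine synthesis enzyme Phgdh had 2.21 and 5.67 TPM in MAR1INT, 25.2 and 28.9 in MAR1HI and 65.7 and 54.7 in BaP (log2 change against BaP -3.72 ± 0.41, limma adjusted p = 0.000289). Psat1, the next enzyme of serine synthesis, had 3.47 and 0.798 TPM in MAR1INT, 17.7 and 24.2 in MAR1HI and 32.3 and 37.6 in BaP, and Aars, the alanyl-tRNA synthetase, had 2.31 and 3.59 TPM in MAR1INT, 24.1 and 23.4 in MAR1HI and 38.7 and 37.9 in BaP. Mthfd2, a mitochondrial folate enzyme, was listed at 0 in MAR1INT replicate 1 and had 0.230 TPM in replicate 2, against 12.3 and 15.05 in MAR1HI and 12.1 and 13.4 in BaP. Of 22 tested genes of the lysosomal mTORC1 machinery, 2 were higher and 1 lower in MAR1INT than in BaP. The higher ones were Sesn1 (117 and 121 TPM in MAR1INT, 44.6 and 84.5 in MAR1HI and 39.6 and 25.5 in BaP) and the arginine sensor Castor1 (14.8 and 13.6 TPM in MAR1INT, 6.90 and 5.43 in MAR1HI and 2.81 and 3.24 in BaP). The lower one, Sesn3, was listed at 0 in both MAR1INT libraries and had 6.23 and 4.71 TPM in MAR1HI and 6.62 and 2.51 in BaP.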

How the data were processed

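RNA sequencing of 6 libraries of sorted mouse bone marrow cells, 2 in each of 3 populations, was analysed. Per the submitters' processing notes, the tools were Trimmomatic, HISAT2 and StringTie with genome build mm10, and their versions, options and annotation are not given in the sources used here. The authors' deposited tables hold, per the file headers, coverage (a signal per gene), FPKM and TPM, and each deposited TPM column sums to 1000000. The files give no read counts, so depth was taken from the deposited coverage and FPKM as aligned gigabases (4.75 to 5.28), and no counting interval is given. Parts of a gene ID listed more than once were summed. Symbols came from a RefSeq gene table (GRCm38.p6), in which 24462 of 24532 IDs matched.

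The 11337 genes reaching TPM 1 in 2 or more libraries were tested on log2(TPM + 1) values by a linear model in limma (version 3.58.1, under R 4.3.3), moderated with an intensity trend. The fit had 1 term per population and 3 residual degrees of freedom, and was tested on simulated data. Tests were two-sided with Benjamini-Hochberg adjustment over all genes, and genes were called at an adjusted p under 0.05. The alternatives were a pseudocount of 0.1, no filter on low values, a mean TPM of 5 or more, FPKM, quantile normalization, median-of-ratios scaling, only the 2 groups compared, a replicate block, and each library left out in turn. Members, substrate classes (by family number) and gene lists were chosen with earlier results of these data known. Named were called members by size (up to 15 each way), the 15 most abundant, up to 4 per class by mean level and those at the limit of 5 TPM, and from each other list up to 4 called genes by size. Of the genes this rule names, 3 are not reported here. Tables and plots were made in Python 3.11.15 (pandas 2.3.3, matplotlib 3.10.9, numpy 2.4.6).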

Additional observations from a re-analysis of the deposited data

How the results depend on the processing

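Members and other named genes were followed through the alternatives only in comparisons in which the main fit called them. Among these calls, no direction reversed in any of 14 alternatives. Directions of genes that were not called were not followed. Of 746 repeats of called members, 560 stayed past the threshold and 186 did not. These repeats include members below 5 TPM in some population, whose choice favours their calls, so the numbers are a description. Of the 19 calls in MAR1INT minus BaP among members at 5 TPM or more in every population, 8 were kept under every alternative that could be fitted (among them Slc25a5, Slc22a3, Slc2a6, Slc7a8, Slc43a3, Slc41a3 and Slc24a3), and 0 of 5 and 0 of 4 in MAR1INT minus MAR1HI and MAR1HI minus BaP. Counts of called members that moved by more than 1.5 times are as follows, and the cause was not tested. For MAR1INT minus BaP (18 higher, 19 lower), higher calls were 28 with median-of-ratios scaling and 29 with quantile normalization, and lower calls were 10 with no filter and 29 with FPKM. For MAR1INT minus MAR1HI (4 higher, 7 lower), higher calls were 0 with no filter, 9 with FPKM, 11 with median-of-ratios scaling and 13 with quantile normalization, and lower calls were 1, 13 and 3 with no filter, FPKM and quantile normalization. For MAR1HI minus BaP (5 higher, 1 lower), higher calls were 0 with no filter and 11 with only the 2 groups compared, and lower calls were 0 with a pseudocount of 0.1, with no filter and with a mean TPM of 5 or more, 3 with FPKM and with quantile normalization, and 7 with only the 2 groups compared. The F test gave 28 calls and 15 with no filter.

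Leaving out each library in turn gave 8 to 19 higher and 8 to 27 lower calls in MAR1INT minus BaP, 0 to 5 and 0 to 17 in MAR1INT minus MAR1HI, 0 to 11 and 0 to 7 in MAR1HI minus BaP, and 16 to 41 in the F test. A group left with 1 library was assumed to vary like the others. With a replicate block the counts were 15 higher and 18 lower, 3 and 9, and 5 and 1 in the same order of comparisons, and 29 in the F test. The labels tie no number to an animal or day, and replicate differences correlated over genes by -0.0922, -0.0593 and 0.154, so the pairing rests on a shared number alone. The medians of all tested genes moved with scaling, for MAR1INT minus MAR1HI between -0.36 and 0.11 on the log2 scale.

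With 2 libraries a population, a change that missed the threshold is not shown to be absent, and zeros in MAR1INT were taken as listed.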

Other observations

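Transport genes outside the solute carrier symbols were counted with the same limma fit. Of all tested genes, 11.1% were called higher and 20.4% lower in MAR1INT than in BaP, and the counts of these lists are a description beside those shares. Of 31 tested ABC transporters, 4 were higher and 9 lower in MAR1INT than in BaP. The mitochondrial transporter Abcb8 had 0.416 and 1.81 TPM in MAR1INT, 8.90 and 5.77 in MAR1HI and 13.6 and 11.2 in BaP (log2 change of MAR1INT minus BaP -2.74 ± 0.48, SE, limma adjusted p = 0.00282). The exporter Abcg2 was listed at 0 in MAR1INT replicate 1 and had 3.25 TPM in replicate 2, against 3.64 and 1.59 in MAR1HI and 14.8 and 12.2 in BaP. Abcb1b, a drug exporter, had 1.79 TPM in MAR1INT replicate 1 and was listed at 0 in replicate 2, against 0.574 and 2.10 in MAR1HI and 6.55 and 8.30 in BaP. Abcg3 was listed at 0 in both MAR1INT libraries and had 1.29 and 0.191 TPM in MAR1HI and 5.64 and 3.77 in BaP.

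Of 32 tested ion pumps and proton ATPase subunits, 5 were higher and 6 lower in MAR1INT than in BaP. The sodium pump subunit Atp1b1 had 118 and 109.6 TPM in MAR1INT, 113 and 169 in MAR1HI and 29.0 and 31.4 in BaP, a log2 change of 1.88 ± 0.26 for MAR1INT minus BaP (adjusted p = 0.000875). It was also called in MAR1HI minus BaP, and that call did not survive leaving out a library of either population, with adjusted p up to 0.166. The plasma membrane calcium pumps Atp2b1 and Atp2b4 were lower, with log2 changes of -1.87 ± 0.55 and -1.60 ± 0.44 for MAR1INT minus BaP. The MAR1INT libraries of Atp2b1 lay far apart, at 6.74 and 1.65 TPM, against 19.7 and 12.2 in BaP. Its call was lost under 9 of 14 alternatives, and that of Atp2b4 under 3.

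Of 42 tested facilitators outside the solute carrier symbols, 4 were higher and 7 lower in MAR1INT than in BaP. Mfsd6 had 73.1 and 68.2 TPM in MAR1INT, 37.7 and 61.3 in MAR1HI and 11.9 and 17.0 in BaP (log2 change of MAR1INT minus BaP 2.23 ± 0.33, limma adjusted p = 0.00116). Slco4a1, an organic anion transporter, had 2.36 and 2.65 TPM in MAR1INT, 11.6 and 18.7 in MAR1HI and 9.59 and 11.6 in BaP (log2 change of MAR1INT minus BaP -1.72 ± 0.42, adjusted p = 0.0134).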
